A study of Homo sapiens with 12 samples.

Results

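TLR3, TLR2, MYD88 and TICAM1 encode 2 receptors and 2 adaptors of the Toll-like receptor (TLR) system, and their RNA was followed after IFNα in cells of head and neck carcinoma of squamous type (HNSCC). The 4 genes were taken by symbol from a table of 60099 genes, whatever their values, and all 4 had enough counts to enter the test. The samples came from Cal27 and HN30, established HNSCC lines, and were untreated or had received 20 or 200 ng/ml IFNα for 24 h. Each of the 3 doses was measured in 2 sets of samples, here named line set A-C and line set D-F after the sample letters. Letters A and D mark untreated controls, letters B and E the dose of 20 ng/ml, and letters C and F that of 200 ng/ml, each letter with 2 replicates. The labels and the paper's text do not say which set is which line, so the sets are kept under their letters. Nothing says that the replicates were separate cultures, and p-values then measure the spread between these samples, which may be technical.

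TLRs are receptors that recognise conserved microbial molecules and start an inflammatory and antiviral response. TLR3 sits in the endosome, recognises double-stranded RNA and signals through the adaptor TICAM1, also called TRIF, towards interferon production. TLR2 sits at the cell surface, recognises bacterial lipopeptides together with a partner TLR and signals through MYD88, the adaptor shared by nearly every other TLR and by the interleukin receptors of the same domain family. IFNα acts through transcription factors, IRF9 among them, that bind a DNA element called the interferon-stimulated response element (ISRE), and interferon signalling also uses the interferon-gamma activated site (GAS).

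The promoters of the 4 genes were read for both elements. RefSeq promoters on GRCh38.p14, each reaching from 250 bases before to 50 bases after the annotated start, were searched on both strands for the ISRE core, which is GAAA and GAAA parted by any 2 bases, and for the GAS pattern TTCNNNGAA, which reads the same on either strand. Positions below count from the start of the gene, and capitals mark the matched bases within windows read along the plus strand, which is the gene strand of TLR3 and MYD88.
TLR3 ISRE core at position -4, on the opposite strand, chr4:186069142-186069171: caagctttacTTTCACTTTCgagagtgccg
TLR3 GAS at position -178, chr4:186068968-186068996: ctgtgaccctTTCAATGAAatccaaggat
TLR3 GAS at position -50, chr4:186069096-186069124: ccctttgcccTTCTTGGAAtgcaccaaac
MYD88 ISRE core at position -61, on the gene strand, chr3:38138590-38138619: gcgcttctcgGAAAGCGAAAgccggcgggg
MYD88 GAS at position -67, overlapping its ISRE core, chr3:38138584-38138612: agggcggcgcTTCTCGGAAagcgaaagcc
The promoters of TLR2 and TICAM1 held neither pattern in these windows. An ISRE core was found in 1255 of 35116 promoters of this length, or 3.57%, and in 64 of 212 promoters of genes called higher at 200 ng/ml, or 30.2%. GAS patterns were found in 7.66% of all promoters and in 14.2% of those of the called genes. Such a match is a description of letters and not of binding. The TLR3 match spans the annotated start, and the MYD88 match lies inside the gene as the deposited table draws it.

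The deposited table places TLR3 (ENSG00000164342) at chr4:186069152-186088069 on the plus strand of GRCh38 and TLR2 (ENSG00000137462) at chr4:153701500-153705699 on the same strand. MYD88 (ENSG00000172936) lies at chr3:38138478-38143022 on the plus strand and TICAM1 (ENSG00000127666) at chr19:4815932-4831704 on the minus strand. No other gene of the table overlapped any of the 4. The only TLR2 transcript listed begins well downstream of the RefSeq start at position 153684280, so the searched TLR2 promoter lies outside the gene as it was counted.

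Samples held 10517448 to 16056734 estimated counts in all, and the controls were the deeper ones, with at least 12670755 counts against at most 11854183 at 200 ng/ml. All 9 interferon-stimulated genes of a check list (MX1, IFIT1, IFIT3, ISG15, OAS1, IFI44L, RSAD2, IFI6 and IRF9) rose at both doses, with log2 fold changes between 2.69 and 7.04 at 200 ng/ml. Squamous epithelial markers reached 1 TPM for 10 of 10 genes in line set A-C and 9 of 10 in D-F. The summed TPM of 12 leukocyte markers moved with dose, from a mean of 13.8 in the controls to 20.3 at 200 ng/ml in A-C and from 9.30 to 41.5 in D-F. In D-F this sum was mostly CD68, which went from 5.29 and 6.45 TPM to 36.1 and 39.6 TPM. Of these 12 markers 5 reached 1 TPM in a sample of A-C (CD68, CSF1R, ITGAM, FCER1G and NCAM1). In D-F 3 did so (CD68, CSF1R and FCER1G), and CSF1R held 1.48 to 5.50 TPM over all 12 samples. The pan-leukocyte gene PTPRC reached at most 0.0425 TPM, and CD3E, MS4A1, SPI1 and TYROBP were at 0 in all 12 samples. The summed TPM of 7 fibroblast markers went from 12.02 to 6.07 in A-C and from 9.31 to 14.7 in D-F, and that of 5 endothelial markers from 16.08 to 20.5 and from 0.286 to 0.510. In each set 3 of the fibroblast markers reached 1 TPM in a sample (COL1A1, COL1A2 and PDGFRB). Of the endothelial markers only CDH5 did so in A-C and 0 did in D-F. The part of these markers in the results that follow was not tested.

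TLR3 RNA was higher in every IFNα-treated sample than in every control of either line set. In line set A-C the controls held 2.24 and 2.46 TPM, the samples at 20 ng/ml 5.05 and 3.85 TPM, and those at 200 ng/ml 5.803 and 6.71 TPM. In line set D-F the corresponding values were 2.39 and 2.01 TPM, 7.35 and 7.91 TPM, and 10.7 and 10.6 TPM. The 4 controls were alike across the sets, and within each set the 3 doses did not overlap. These levels rested on 84 to 120 counts in the controls and 185 to 398 counts in the treated samples. RNA of whole cultures was measured, so a larger share of cells carrying TLR3 RNA and more of it in each cell cannot be told apart.

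**Figure D1:**
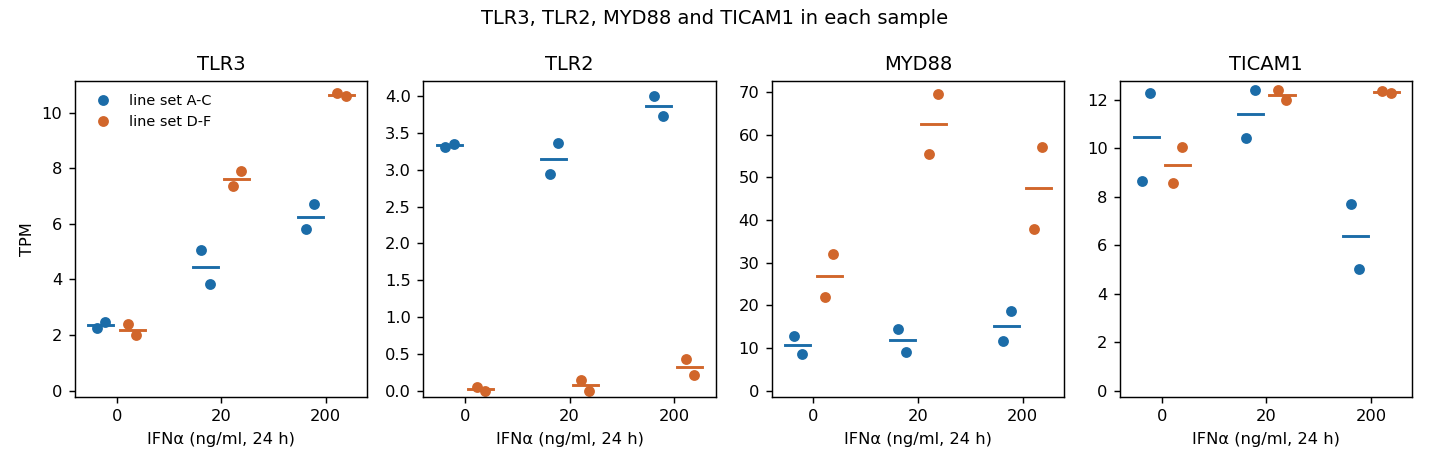
TPM of TLR3, TLR2, MYD88 and TICAM1 (linear axes starting near 0) against IFNα dose in ng/ml, with 1 point per sample, a bar at the mean of 2 replicates and colour for the line set. TLR3 climbs from 2.01 to 2.46 TPM in the controls to between 5.803 and 10.7 TPM at 200 ng/ml in both sets, while TLR2 separates the line sets at every dose.

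TLR3 was the only one of the 4 members called against the controls at either dose, where a call needs a fold of at least 2 and an adjusted p of at most 0.05. At 200 ng/ml, averaged over both sets, TLR3 RNA rose 3.63-fold, a log2 fold change of 1.86 ± 0.18 (SE) (edgeR quasi-likelihood test, adjusted p = 0.000207, n = 4 against 4 samples). Of all 19944 genes tested, 2.14% were called at 200 ng/ml, 1.58% higher and 0.552% lower. At 20 ng/ml the log2 fold change of TLR3 was 1.35 ± 0.18, or 2.54-fold (edgeR adjusted p = 0.00259), where 1.15% of genes were called.

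The rise was present in both line sets at the higher dose. TLR3 rose by 1.52 ± 0.26 on the log2 scale in A-C (edgeR adjusted p = 0.01, with 2.18% of genes called) and by 2.20 ± 0.26 in D-F (adjusted p = 0.000885, with 2.09% called). The test of the difference between the sets gave 0.67 ± 0.36 (D-F minus A-C, 95% confidence interval -0.025 to 1.37, edgeR adjusted p = 0.365), and 0 of the 4 members were called in this test of the difference, against 0.998% of genes. At an unadjusted p with a 2-fold difference 2 members passed, TLR2 and TICAM1, against 6.28% of genes, and DESeq2 called 0. At 20 ng/ml TLR3 was called in D-F, with a log2 fold change of 1.63 ± 0.26 (edgeR adjusted p = 0.00731, 1.41% of genes called), but not in A-C, where it was 1.06 ± 0.26 (adjusted p = 0.105, 0.712% called). In A-C at this dose TLR3 was the 1 member that passed at an unadjusted p, with 3.45% of genes, and the 1 that DESeq2 called (1.07, adjusted p = 0.0144, with 1.16% of genes).

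TLR3 was higher at 200 than at 20 ng/ml in each set without overlap, by 0.51 ± 0.17 on the log2 scale (95% confidence interval 0.18 to 0.85). This step did not pass after adjustment over all genes (edgeR adjusted p = 0.409), and 0 of the 4 members passed, against 0.0451% of genes. At an unadjusted p with a 2-fold change 1 member passed, TLR2, against 1.9% of genes, and DESeq2 called 0. The call in A-C at 200 ng/ml was lost without control A replicate 2 (log2 fold change 1.31, adjusted p = 0.0845) and in a fit of only the samples compared (1.53, adjusted p = 0.0515). The call in D-F at 20 ng/ml was lost without control D replicate 2 (1.38, adjusted p = 0.0693), without the 20 ng/ml sample E replicate 2 (1.40, adjusted p = 0.0601) and in a fit of only the samples compared (1.63, adjusted p = 0.0512).

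**Figure D2:**
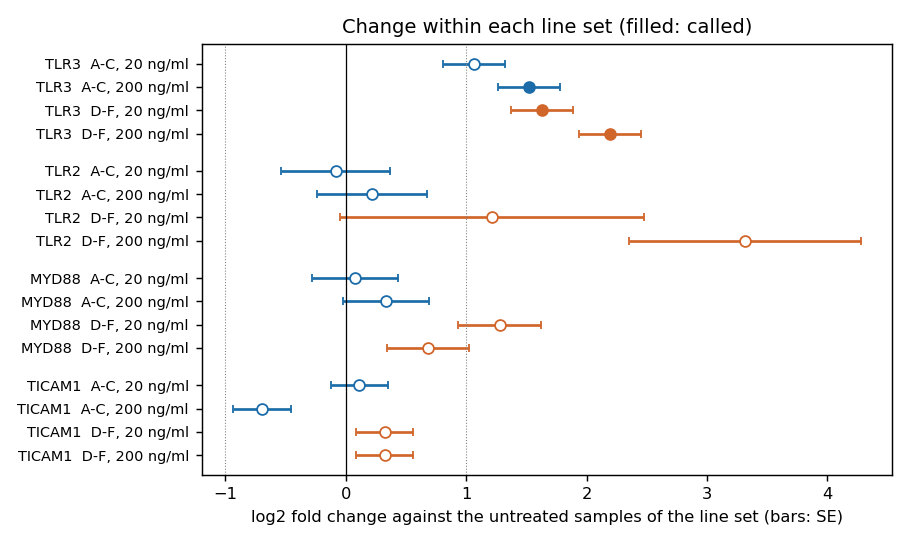
Log2 fold change of each member against the untreated samples of the same line set at 20 and 200 ng/ml, from edgeR, with bars of 1 SE and filled points for called changes. TLR3 at 200 ng/ml in both sets and at 20 ng/ml in D-F are the filled points, and the bars of TLR2 in D-F are the widest because of its low counts.

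The transcripts of TLR3 were counted separately. TLR3-201 (ENST00000296795), the protein coding transcript with the most RNA, held 45.7% of TLR3 TPM in the control with the lowest share and all of it in another control. Its share was 72.3 ± 27.3% (SD, n = 4) in the controls and 77.7 ± 8.73% at 200 ng/ml, a difference of 5.36 percentage points (two-sided exact permutation test within line sets, p = 0.778). The difference turned negative, to -3.50 and -1.32 points, without control A replicate 2 and without control D replicate 2. Its estimated counts in controls were 105 and 68 in A-C and 114 and 58 in D-F, and at 200 ng/ml 210 and 183 in A-C and 370 and 295 in D-F, so every treated value lay above every control of either set. TLR3-201 had a log2 fold change of 1.86 ± 0.36 in the test of all transcripts (edgeR adjusted p = 0.0987), and no transcript of the 4 genes was called there, against 0.494% of the 75876 transcripts tested. At an unadjusted p and a 2-fold change 3 member transcripts passed in edgeR, TLR3-201, TLR3-202 and MYD88-203, the last of which was lower, as did 6.33% of all transcripts. DESeq2 called 2, TLR3-201 and TLR2-201, and 2.9% of all transcripts.

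TLR3-202 (ENST00000504367), a shorter coding transcript, had counts only in both samples at 200 ng/ml in A-C (16 and 26), in 1 sample at 20 ng/ml in D-F (28) and in 1 at 200 ng/ml in D-F (50). TLR3-204 (ENST00000512264), annotated as a retained intron, had 0 to 39 counts and was at 0 in 1 sample. TLR3-205 had 9 counts in 1 control and 0 elsewhere, and TLR3-203 had no counts. The counts of transcripts that share exons are estimates.

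TICAM1, the adaptor that carries the TLR3 signal, was not called at either dose. In line set A-C the controls held 8.66 and 12.3 TPM, the samples at 20 ng/ml 10.4 and 12.4 TPM, and those at 200 ng/ml 7.72 and 5.03 TPM. In line set D-F the values were 8.55 and 10.03 TPM, 12.4 and 11.98 TPM, and 12.3 and 12.3 TPM. Both samples at 200 ng/ml lay below the controls in A-C, and all 4 treated samples lay above the controls in D-F. How many of all genes separate in this way was not counted.

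Averaged over both sets, TICAM1 had a log2 fold change of -0.19 ± 0.17 at 200 ng/ml (95% confidence interval -0.52 to 0.15, edgeR adjusted p = 0.568) and of 0.22 ± 0.17 at 20 ng/ml (-0.11 to 0.54, adjusted p = 0.586). At 200 ng/ml it was -0.69 ± 0.24 in A-C (edgeR adjusted p = 0.125) and 0.32 ± 0.24 in D-F (adjusted p = 0.542). The change differed between the sets by 1.02 ± 0.34 (edgeR unadjusted p = 0.0139, adjusted p = 0.161). Without the 200 ng/ml sample C replicate 1, the decrease in A-C was called at -1.07 (adjusted p = 0.0497). Without control A replicate 2 it was -0.39 (adjusted p = 0.527), and the difference between the sets was 0.71 (adjusted p = 0.396). All TICAM1 counts, 84 to 330 per sample, were assigned to TICAM1-201 (ENST00000248244), and the other listed transcript had none.

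The balance of receptor to adaptor RNA within a sample was examined after the values of both genes had been seen. The ratio of TLR3 TPM to TICAM1 TPM was 0.259 and 0.200 in the controls of A-C, 0.485 and 0.310 at 20 ng/ml and 0.752 and 1.33 at 200 ng/ml. In D-F it was 0.279 and 0.200, then 0.593 and 0.661, then 0.867 and 0.862. The 3 doses did not overlap, with means of 0.235 ± 0.0407, 0.512 ± 0.153 and 0.954 ± 0.259 (SD, n = 4 each). Against the controls the log2 ratio was higher by 1.09 at 20 ng/ml and by 2.00 at 200 ng/ml, and the two-sided exact permutation test within line sets gave p = 0.0556 for each, which is the smallest this design allows.

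TLR2 separated the 2 line sets more than any dose did. In line set A-C the controls held 3.31 and 3.35 TPM, the samples at 20 ng/ml 2.94 and 3.36 TPM, and those at 200 ng/ml 4.004 and 3.72 TPM. In line set D-F the values were 0.0549 and 0 TPM, 0.146 and 0 TPM, and 0.426 and 0.210 TPM. Every sample of A-C lay above every sample of D-F. In both sets the samples at 200 ng/ml lay above the controls, while those at 20 ng/ml overlapped them. Each such separation compares 2 samples with 2, and the share of all genes that separate in this way was not computed, here or for the other members.

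The D-F values rest on very few reads. TLR2 had 2 and 0 counts in the D-F controls, 4 and 0 at 20 ng/ml and 12 and 6 at 200 ng/ml, against 96 to 142 in A-C. Controls A and D together held 251 and 2 counts, a ratio scaled for total counts of 128 (exact 95% interval 35.2 to 1067, counting error only). Among the untreated samples TLR2 was the only member called between the sets, lower in D (edgeR adjusted p = 6.87e-05), where 26.6% of genes were called, 11% lower in D. Across the sets at 20 ng/ml the ratio of A-C to D-F counts was 48.0 (18.5 to 178) and at 200 ng/ml it was 12.7 (7.86 to 21.9).

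Within D-F, 18 counts at 200 ng/ml stood against 2 in the controls, a ratio of 11.3 (exact 95% interval 2.71 to 101). The fitted log2 fold change was 3.32 ± 0.96 (edgeR adjusted p = 0.0844), a value that depends on the prior count used for near-empty samples. It was 6.23 without control D replicate 1 (adjusted p = 0.114) and 2.39 without control D replicate 2 (adjusted p = 0.307). In A-C it was 0.22 ± 0.46 (95% confidence interval -0.67 to 1.11, edgeR adjusted p = 0.848). The difference between the sets was 3.10 ± 1.08 (edgeR unadjusted p = 0.018, adjusted p = 0.18). Over both sets the log2 fold change at 200 ng/ml was 1.77 ± 0.54 (edgeR adjusted p = 0.0734), and without these same controls it was 3.23 and 1.304 (adjusted p = 0.0703 and 0.233). DESeq2 called the change over both sets (1.87, adjusted p = 0.0168, with 2.12% of genes), as did edgeR without the 20 ng/ml samples E replicate 1 (1.76, adjusted p = 0.0355) or E replicate 2 (1.76, adjusted p = 0.0354). DESeq2 also called the change in D-F (3.49, adjusted p = 0.0276, with 2.47% of genes), as did edgeR without E replicate 1 (3.30, adjusted p = 0.042) or E replicate 2 (3.31, adjusted p = 0.0413).

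At 20 ng/ml TLR2 had a log2 fold change of 0.56 ± 0.66 over both sets (edgeR adjusted p = 0.765), which became -1.52 without E replicate 1 and 2.04 at the other extreme of leaving out a sample. The sign in D-F turned likewise, from 1.21 with all samples to -2.97 without E replicate 1. CD68, the leukocyte marker named above, rose with dose in both line sets. In A-C it went from 8.15 and 10.1 TPM in controls A to 17.4 and 17.4 TPM in samples C. In D-F the marker CSF1R held 3.27 and 3.28 TPM in controls D and 3.36 and 3.09 TPM in samples F. FCER1G held 0.145 and 0 TPM in controls D and 0.840 and 0 TPM in samples F. The part of leukocyte markers in the TLR2 counts was not tested.

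MYD88, the shared adaptor, had the highest mean level of the 4 genes in every letter group and was higher in D-F than in A-C. In line set A-C the controls held 12.8 and 8.63 TPM, the samples at 20 ng/ml 14.4 and 9.16 TPM, and those at 200 ng/ml 11.7 and 18.8 TPM. In line set D-F the values were 21.9 and 31.9 TPM, 55.5 and 69.6 TPM, and 37.9 and 57.0 TPM. The doses overlapped in A-C, whereas every treated sample of D-F lay above its controls. The highest value in D-F, 69.6 TPM, was at 20 ng/ml, and the samples at 20 and 200 ng/ml overlapped. All D-F samples exceeded all A-C samples.

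MYD88 was not called at either dose. Averaged over both sets, the log2 fold change at 200 ng/ml was 0.51 ± 0.25 (95% confidence interval 0.02 to 0.99, edgeR unadjusted p = 0.0689, adjusted p = 0.251). This interval leaves out 0 although the unadjusted p exceeds 0.05, because intervals here assume a normal distribution and are too narrow. At 20 ng/ml the log2 fold change was 0.68 ± 0.25 (0.19 to 1.16, edgeR adjusted p = 0.195). In D-F at 20 ng/ml it was 1.28 ± 0.34 (edgeR adjusted p = 0.09), which was called by DESeq2 (1.28, adjusted p = 0.00542, with 1.83% of genes). With 1 sample left out the edgeR value ranged from 0.63 to 1.72, the latter without the 20 ng/ml sample E replicate 1. Of the 20 ng/ml samples E, replicate 2 held 1320 MYD88 counts and replicate 1 held 579. Between the untreated sets MYD88 was 1.95-fold higher in D than in A (log2 fold change 0.96 ± 0.35, edgeR adjusted p = 0.0471), just short of the fold threshold. Without that threshold 46.4% of genes passed in this comparison. It was called without control A replicate 1 (1.35, adjusted p = 0.037) and in the limma fit of TPM (1.32, adjusted p = 0.013), and was 0.65 without control A replicate 2 (adjusted p = 0.259).

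Most MYD88 counts of 1 sample at 20 ng/ml in D-F were assigned to a single noncoding transcript. MYD88-210 (ENST00000484513), annotated as a retained intron, has 2 exons at chr3:38139423-38140848 and chr3:38141132-38143019. Of the first, 1018 of the 1426 bases lie outside the exons of the coding transcript MYD88-201 (ENST00000396334). All 1888 bases of the second lie inside those exons, so the counts assigned to MYD88-210 may include coding RNA. In A-C MYD88-210 had 20 and 29 counts in the controls, 40 and 45 at 20 ng/ml and 86 and 50 at 200 ng/ml. In D-F it had 66 and 72 counts, then 190 and 934, then 52 and 66. The 934 counts of E replicate 2 made up 70.8% of that sample's 1320 MYD88 counts, whereas the share was 7.97 to 46.0% in the other 11 samples.

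The MYD88 count was therefore also tested without MYD88-210, an analysis chosen after the values were seen. Because of the shared exon, the counts removed are not known to be noncoding only. The log2 fold change at 20 ng/ml in D-F then fell from 1.28 to 0.23 (edgeR adjusted p = 0.845), and that over both sets from 0.68 to 0.08 (adjusted p = 0.939). At 200 ng/ml it was 0.35 ± 0.23 over both sets (edgeR adjusted p = 0.406), 0.76 ± 0.32 in D-F (adjusted p = 0.241) and -0.051 ± 0.34 in A-C (adjusted p = 0.975). The difference between untreated D and A changed little, from 0.96 to 0.91 (edgeR adjusted p = 0.0472).

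**Figure D3:**
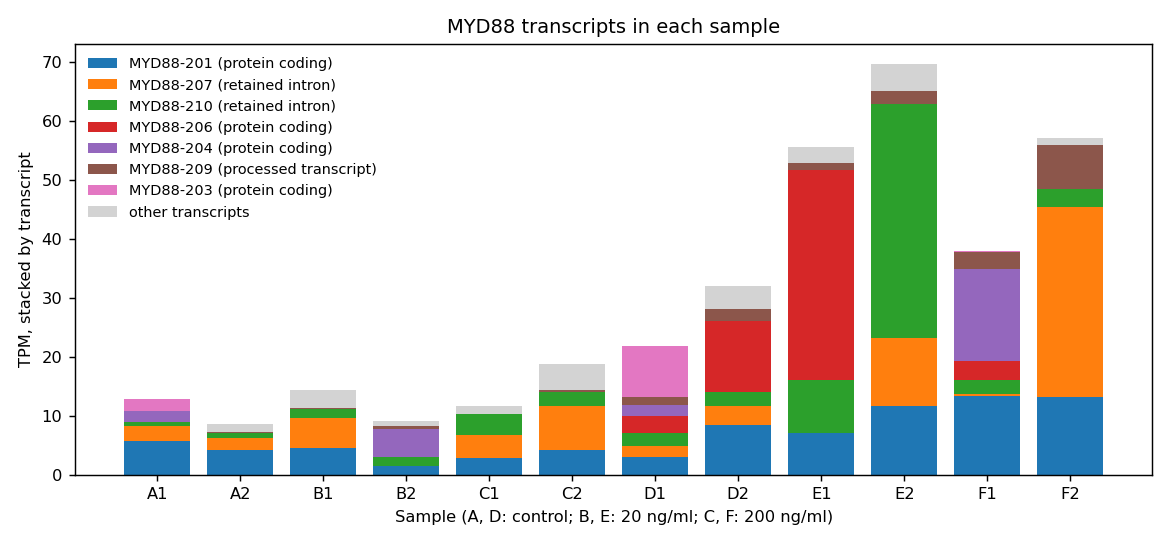
TPM of MYD88 transcripts stacked for each of the 12 samples, coloured by transcript with the annotated type in the legend. The bars of D1 to F2 are taller than those of A1 to C2, MYD88-210 fills most of E2, and the other large segments change from replicate to replicate.

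The remaining MYD88 transcripts were divided unevenly between replicates. MYD88-201 held 12.8 to 48.2% of MYD88 TPM, with 33.2 ± 16.0% (SD, n = 4) in the controls and 26.3 ± 5.94% at 200 ng/ml, a difference of -6.84 percentage points (two-sided exact permutation test, p = 0.333). The coding transcript MYD88-206 had 211 counts in E replicate 1 and 0 in E replicate 2, and MYD88-204 had 279 counts in F replicate 1 and 0 in F replicate 2. MYD88-203 had 219 counts in control D replicate 1 and 0 in control D replicate 2, and the retained intron transcript MYD88-207 had 4 and 238 counts in the F replicates. Such pairs differ far more than the gene totals of the same samples, so statements on single MYD88 transcripts are not drawn from them.

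Coding transcripts together made up 20.1% of MYD88 counts in E replicate 2 and 88.8% in F replicate 1, the lowest and highest shares. Their summed TPM was 9.52 and 5.60 in the controls of A-C, 6.30 and 7.20 at 20 ng/ml and 4.25 and 5.96 at 200 ng/ml. In D-F it was 16.5 and 21.8, then 43.7 and 15.2, then 32.2 and 13.5. The doses overlapped in both sets. Against the controls, log2(TPM + 0.1) of this sum differed by 0.16 at 20 ng/ml (two-sided exact permutation test, p = 0.778) and by -0.20 at 200 ng/ml (p = 0.611), and this sum too was chosen after the values were seen. Only MYD88-202, MYD88-205, MYD88-209 and MYD88-211 remain, with at most 64 counts each, and MYD88-208 had none.

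The order of the 4 genes by TPM, which is scaled for length, differed between the sets. Untreated A held 10.7 ± 2.98 TPM (SD, n = 2) of MYD88, 10.46 ± 2.55 of TICAM1, 3.33 ± 0.0243 of TLR2 and 2.35 ± 0.153 of TLR3, and the replicates of MYD88 and TICAM1 overlapped. Untreated D held 26.9 ± 7.10 TPM of MYD88, 9.29 ± 1.05 of TICAM1, 2.20 ± 0.270 of TLR3 and 0.0275 ± 0.0388 of TLR2, with no overlap between neighbours. At 200 ng/ml TLR3 had moved up to overlap TICAM1 in A-C, with means of 6.26 ± 0.645 and 6.37 ± 1.90 TPM. In D-F at this dose TLR3 stood at 10.7 ± 0.0733 TPM and TICAM1 at 12.3 ± 0.0330 TPM, without overlap.

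Of the 8 other TLR genes, TLR1, TLR4, TLR5 and TLR6 had enough counts to be tested, and none was called over both sets at either dose. The shares of all genes called were 2.14% at 200 ng/ml and 1.15% at 20 ng/ml. TLR7 and TLR8, the endosomal receptors for single-stranded RNA, had 0 counts in all 12 samples, and TLR9 and TLR10 had at most 2 counts. A count of 0 allows up to 3 counts, which corresponds to 0.194 to 0.307 CPM (counts scaled to library size) in these samples, counting error only. Over both sets none of the tested TLR1, TLR4, TLR5 and TLR6 passed with edgeR at an unadjusted p with a 2-fold change, nor with DESeq2. With edgeR and all samples TLR3 was the only TLR called over both sets, while DESeq2 also called TLR2 at 200 ng/ml, and the difference from the other TLRs was not tested.

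TLR1, a partner of TLR2, had mean levels of 1.20, 1.46 and 1.31 TPM at 0, 20 and 200 ng/ml in A-C and 2.34, 4.26 and 3.79 TPM in D-F, with a log2 fold change of 0.57 ± 0.23 at 200 ng/ml over both sets (edgeR adjusted p = 0.17). In D-F alone TLR1 was 1.20 ± 0.32 at 20 ng/ml (edgeR adjusted p = 0.0875) and 1.09 ± 0.32 at 200 ng/ml (adjusted p = 0.0859). TLR6, the other partner of TLR2, had 2.98, 4.57 and 4.12 TPM in A-C and 11.1, 13.97 and 12.5 TPM in D-F (0.12 ± 0.21, adjusted p = 0.817). TLR4, the lipopolysaccharide receptor, had 1.81, 2.34 and 1.89 TPM in A-C and 14.6, 17.1 and 20.2 TPM in D-F (0.27 ± 0.13, adjusted p = 0.233). TLR5, the flagellin receptor, had 1.11, 0.436 and 0.457 TPM in A-C and 0.0833, 0.131 and 0.0560 TPM in D-F (-0.65 ± 0.73, adjusted p = 0.662).

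The untreated line sets differed in the levels of several TLRs, in a comparison where 26.6% of all genes were called. Untreated D was higher than A in TLR4 by 2.83 ± 0.18 on the log2 scale (edgeR adjusted p = 2.14e-06) and in TLR6 by 1.74 ± 0.30 (adjusted p = 0.00114). TLR5 was lower in D, with a log2 difference of -3.18 ± 0.91 (edgeR adjusted p = 0.0173), and so was TLR2. TLR3 did not separate the untreated sets, with a log2 difference of -0.13 ± 0.26 (95% confidence interval -0.64 to 0.38, edgeR adjusted p = 0.724), which changed sign without control A replicate 1 (0.11) or control D replicate 2 (0.12).

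**Figure D4:**
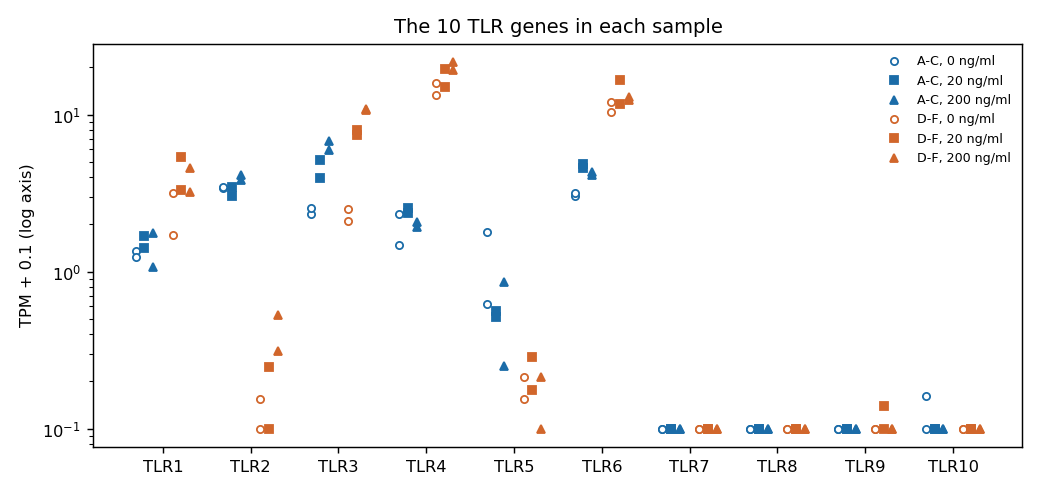
TPM + 0.1 on a log axis for the 10 TLR genes in each of the 12 samples, with colour for the line set and symbol for the dose. TLR3 is the gene in which open control symbols lie below all filled symbols in both sets, while TLR2, TLR4 and TLR6 separate the sets and TLR7 to TLR10 lie at or near the floor.

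Another 61 genes of the pathway were followed by list, 51 of which had enough counts to be tested. At 200 ng/ml 4 rose by the call used here and 0 fell, where 1.58% of all genes were called higher and 0.552% lower. At 20 ng/ml 3 rose and 0 fell, the same genes apart from CXCL8, where 0.963% of all genes were called higher. DESeq2 also called 4 and 3. The median log2 fold change of the 51 was 0.18 at each dose, against -0.01 over all genes tested. By line set it was 0 at 200 ng/ml and -0.031 at 20 ng/ml in A-C, and 0.40 and 0.27 in D-F. Without the fold threshold 14 of the 51 passed as higher at 200 ng/ml, where 9.55% of all genes passed in either direction.

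On the TICAM1 arm, which leads from the adaptor to interferon regulatory factors and to cell death, 11 genes were tested and 1 was called over both sets, IRF7, a transcription factor for interferon genes. IRF7 had mean levels of 5.21, 30.9 and 25.5 TPM at 0, 20 and 200 ng/ml in A-C and 12.5, 98.2 and 119 TPM in D-F. Its log2 fold change was 2.81 ± 0.16 at 200 ng/ml (edgeR adjusted p = 3.26e-06) and 2.85 ± 0.16 at 20 ng/ml (adjusted p = 3.32e-06). The kinases TBK1 and IKBKE, RIPK1, FADD and the protease CASP8 of this arm passed without the fold threshold, with log2 fold changes between 0.31 and 0.63 at 200 ng/ml. In A-C alone CASP8 was called at this dose (1.02 ± 0.13, edgeR adjusted p = 0.00223), and in D-F it was 0.25 ± 0.13 (adjusted p = 0.352). IKBKE was 0.98 ± 0.12 in D-F (edgeR adjusted p = 0.00121) and -0.068 ± 0.12 in A-C (adjusted p = 0.804). Its difference between the sets was called at 1.05 ± 0.17 (edgeR adjusted p = 0.0212).

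On the MYD88 arm, which runs from the IRAK kinases and TRAF6 to the IKK complex, 13 genes were tested and 0 were called over both sets at either dose. The median log2 fold change was 0.07 at both. Of all genes 2.14% were called at 200 ng/ml and 1.15% at 20 ng/ml. Finding 0 calls in this list and the short lists below therefore does not set them apart. IRAK2, an IRAK kinase, passed without the fold threshold at 0.44 ± 0.09 (edgeR adjusted p = 0.0141). Its change was 0.96 ± 0.12 in D-F (adjusted p = 0.00174) and -0.075 ± 0.13 in A-C (adjusted p = 0.803), and the difference between the sets was called at 1.04 ± 0.18 (adjusted p = 0.0269). Over both sets DESeq2 called 0 as well, and at an unadjusted p with a 2-fold change 0 passed at 200 ng/ml and 1 at 20 ng/ml. The 6 other TIR-domain adaptors, decoys and regulators also gave 0 calls over both sets, by either tool or at an unadjusted p. Among NF-kB subunits and their inhibitors, 7 genes were tested and 0 were called over both sets, by either tool or at an unadjusted p with a 2-fold change. TNFAIP3, a feedback inhibitor of NF-kB, passed without the fold threshold at 0.97 ± 0.08 (edgeR adjusted p = 6.25e-05). It was called in D-F at 1.72 ± 0.12 (adjusted p = 1.71e-05) and was 0.23 ± 0.11 in A-C (adjusted p = 0.263), and the difference between the sets was called at 1.495 ± 0.157 (adjusted p = 0.00394).

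Of the 4 tested genes for trafficking and co-receptors, 0 were called over both sets, against 2.14% of all genes at 200 ng/ml and 1.15% at 20 ng/ml. UNC93B1, which escorts TLR3 and other nucleic acid receptors to endosomes, was singled out after its values were seen. Its mean level in D-F went from 30.4 TPM in the controls to 68.2 at 20 ng/ml and 89.4 at 200 ng/ml, and in A-C it was 41.6, 52.0 and 38.4 TPM. The log2 fold change at 200 ng/ml was 1.66 ± 0.18 in D-F (edgeR adjusted p = 0.00058) and 0.05 ± 0.18 in A-C (adjusted p = 0.927). The difference between the sets was 1.61 ± 0.25 (edgeR adjusted p = 0.0197).

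Cytokines that TLR signalling can induce gave 3 of the 4 calls at 200 ng/ml, with 6 of 10 tested. CXCL10, a chemokine that interferons also induce directly, had mean levels of 1.64, 6.15 and 19.3 TPM at the 3 doses in A-C and 0.0611, 4.17 and 13.2 TPM in D-F, with a log2 fold change of 5.17 ± 0.31 at 200 ng/ml (edgeR adjusted p = 6.57e-06). Its change was larger in D-F than in A-C by 3.33 ± 0.70 (edgeR adjusted p = 0.0493). CXCL10 was at 0 in 1 control of D-F, so both values depend on the prior count. IL6 rose by 1.81 ± 0.17 at 200 ng/ml (edgeR adjusted p = 0.000142) and by 1.37 ± 0.17 at 20 ng/ml (adjusted p = 0.00145).

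CXCL8, a neutrophil chemokine, rose by 1.20 ± 0.10 at 200 ng/ml (edgeR adjusted p = 6.57e-05), and this change differed between the sets by 1.76 ± 0.20 (adjusted p = 0.00439), with 2.08 ± 0.14 in D-F and 0.32 ± 0.13 in A-C. Of the antiviral interferons that TLR3 signalling is known for, IFNB1 had at most 4 counts in a sample, IFNL1 at most 8, IFNL2 at most 2 and IFNL3 none. Changes in these 4 genes were not detectable at this depth.

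**Figure D5:**
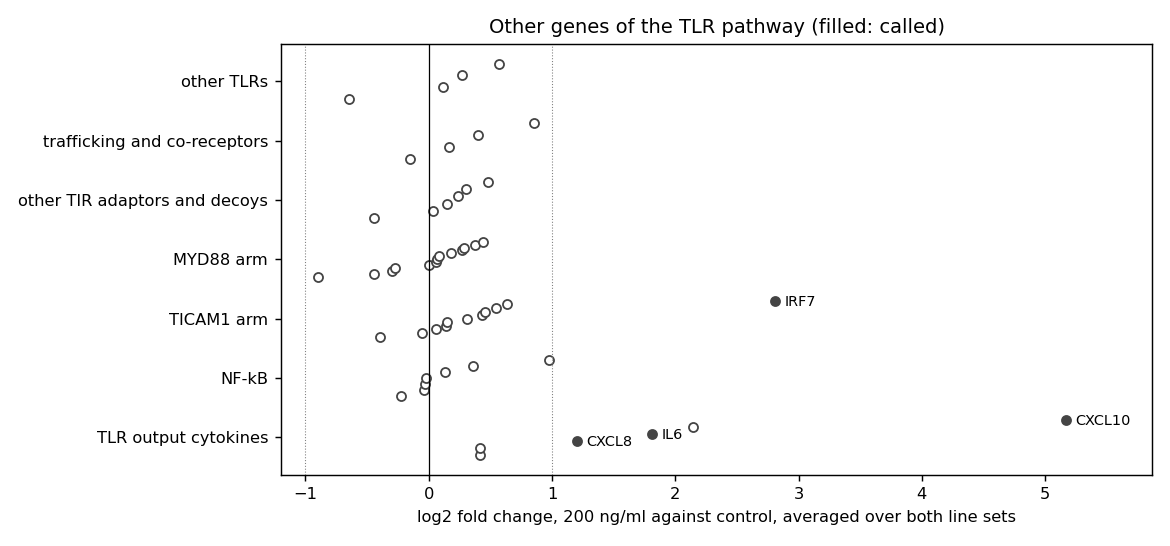
Log2 fold change at 200 ng/ml against the controls, averaged over both line sets, for the 51 tested pathway genes in 7 lists, with filled points for called genes and dotted lines at a 2-fold change. IRF7, CXCL10, IL6 and CXCL8 are the called genes, and the median of the MYD88 arm lies close to 0, with genes on both sides.

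Genes whose log2 CPM ran most like each member over the 12 samples are given as a description, by Pearson's r. For TLR3 these were GBP4, an interferon-induced GTPase (r = 0.974), an unannotated locus on chromosome 7 (r = 0.974) and TRIM21, an intracellular antibody receptor (r = 0.959). With each line set centred on its own mean, they were the same locus (r = 0.986), NMI (r = 0.985) and APOL2 (r = 0.980). For TLR2 they were FAM239A, SGK1 and SGF29 (r = 0.988, 0.988 and 0.987), and after centring ICAM2, AC037459.3 and SGK1 (r = 0.923, 0.921 and 0.914).

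For MYD88 the closest genes were CAPG, AL161891.1 and PTPRE (r = 0.971, 0.964 and 0.9503), and after centring CAPG, RNF8 and NOL10 (r = 0.941, 0.907 and 0.905). For TICAM1 they were PLOD1, C17orf62 and SLC38A10 (r = 0.969, 0.952 and 0.951), and after centring ELMO1, CHTF18 and PLOD1 (r = 0.973, 0.969 and 0.968). The 12 points of each pair share libraries, line sets and doses. The uncentred patterns of TLR2 and MYD88 are mostly the difference between the line sets.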

How the data were processed

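RNA of Cal27 and HN30 cells was sequenced by the authors after ribosomal RNA removal with a strand-specific kit on the HiseqXTen platform, in 6 groups of line set and dose with 2 replicates each. The submitters' processing notes name Trimmomatic 0.36, HISAT2 2.1.0, StringTie 1.3.3b and GRCh38.p10, without their roles, parameters or annotation release. The authors deposited estimated counts, which are whole numbers without any scaling, and TPM values, scaled for length and depth, for genes and for transcripts. A gene's count was the sum of its transcripts for all 60099 genes. The deposited FPKM values were not used. The value of 1 interferon-stimulated gene is not reported here.

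The estimated counts were fitted with edgeR 4.0.16 (R 4.3.3) after TMM normalization and filterByExpr, in 1 model of the 6 groups over 19944 genes. Its quasi-likelihood test gave fold changes and p-values, which were adjusted by Benjamini and Hochberg's method over all genes. A separate fit covered 75876 transcripts. Values over both line sets are averages of the sets. The paper's methods state a t-test at a fold of 2, and the fold threshold was kept. Standard errors were obtained from the log2 fold change and the root of its F statistic. The 95% intervals of fold changes are unadjusted and assume a normal distribution. They are therefore narrower than the edgeR test would give with so few samples. In the exact permutation tests, all two-sided, doses were exchanged within line sets, with 36 arrangements and a smallest p of 0.0556. Alternatives used DESeq2 1.42.0, limma 3.58.1 on log2(TPM + 0.1), other size factors, no filter, each sample left out, only the samples compared and a replicate block. The scripts were tested on simulated data. Tables, motif searches, permutation tests and figures used Python 3.11.15 with pandas 2.3.3, numpy 2.4.6, scipy 1.17.1 and matplotlib 3.10.9.

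Transcript names, types and exons came from GENCODE release 29 on GRCh38. Promoter sequences came from RefSeq on GRCh38.p14, printed as windows with 10 bases on either side of a match. The 4 genes, the pathway lists, the marker lists and the tests were chosen with earlier results of these data known. Named were all 4 members and their transcripts, the other TLRs, pathway genes called over both sets, the check genes and the 3 genes most correlated with each member. Other pathway genes, those passing without the fold threshold or in 1 line set and interferon genes with few counts, were named after their values were seen. Replicates of a letter differed by more than counting noise, with a chi-square per degree of freedom between 11.7 and 16.4. Counts of transcripts that share exons are estimates, and their spread (biological coefficient of variation 0.837) was wider than that of genes (0.196).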

Additional observations from a re-analysis of the deposited data

Results flagged for a closer look

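The share of MYD88 TPM held by the retained intron transcript MYD88-210 was 57.04% in the 20 ng/ml sample E replicate 2, far above the other 3 samples at 20 ng/ml, which held 10.8, 16.2 and 15.9%. The gap to the nearest sample was 0.882 of the range of the group. In all, 18 groups of 4 samples were examined in this way and 1 stood out, where chance at 1 in 20 would give about 0.9. The MYD88-210 share and the ratio of TLR3 to TICAM1 were among the measures examined and were taken up after their values were seen. Each group also mixed the 2 line sets, so nothing is concluded from the count set against chance.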

How the results depend on the processing

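TLR3 kept its call over both line sets under every alternative run, with log2 fold changes of 1.73 to 2.00 at 200 ng/ml and 1.22 to 1.51 at 20 ng/ml. DESeq2 called 2 members at 200 ng/ml over both sets, 2 at 200 and 2 at 20 ng/ml in D-F, 1 at 20 ng/ml in A-C and 2 member transcripts. Unadjusted p-values gave 2, 2, 2, 1 and 3 for the same results. The share of all genes passing was 3.45% at 20 ng/ml in A-C, and 6.33% of all transcripts passed. For the first 3 of these results that share was not computed, so their counts are not read further. Unadjusted p-values also gave 1 member at 200 against 20 ng/ml (1.9% of genes) and 2 for the difference between sets (6.28% of genes). The limma fit of TPM and the call without a fold threshold each gave 2 members between untreated sets, and the latter gave 14 pathway genes. A fit of only the samples compared gave 0 at 200 ng/ml in A-C and 0 at 20 ng/ml in D-F. Without MYD88-210, MYD88 turned to 0.27 for 200 against 20 ng/ml, and in A-C to -0.051 at 200 and -0.062 at 20 ng/ml. The cause of these changes was not tested, apart from that last one, which follows from its construction.

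Leaving out each sample gave 1 to 2 members at 200 ng/ml over both sets, 0 to 2 in A-C, 1 to 2 in D-F, 0 to 2 at 20 ng/ml in D-F, 1 to 2 between untreated sets and 4 to 5 pathway genes. The TLR3-201 share difference ranged from -3.50 to 14.6 points, and that of MYD88-201 from -13.3 to -1.84. Log2 values that changed sign ranged as follows. MYD88 went from -0.24 to 0.46 at 20 ng/ml in A-C, from -0.41 to 0.15 for 200 against 20 ng/ml and from -0.037 to 0.67 for the difference between sets. TICAM1 went from -0.14 to 0.42 at 20 ng/ml in A-C and from -0.56 to 0.000144 between untreated sets. TLR2 went from -1.52 to 2.04 at 20 ng/ml and from -2.97 to 4.14 in D-F, and TLR3 from -0.43 to 0.12 between untreated sets.

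Replicate numbers did not pair the samples, since deviations of same-numbered samples correlated between -0.047 and 0.070 over 6 letter pairs. The replicate block changed no count of calls, and with it TLR3 at 200 ng/ml was 1.87 and MYD88 between untreated sets 0.69 (adjusted p = 0.201). Depth limits TLR2 in D-F and the interferon genes, which had few counts.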
